A study of Mus musculus with 12 samples.

Results

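The genes described here are 10 ATP-binding cassette (ABC) transporters through which liver cells export bile constituents, drugs and conjugates: Abcb11, Abcb4, Abcg5, Abcg8, Abcc2, Abcb1a and Abcg2 of the canalicular membrane, and Abcc3, Abcc4 and Abcc6 of the basolateral membrane. They were chosen by name, as transporters known to lie in those membranes, but with earlier results of these data known. Each was represented by a single probe set, and together they are 10 of the 11861 genes tested. Levels are deposited log2 values, on which a difference of 1 is a doubling.

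ABC exporters use ATP to pump their substrates out of the cell. In the liver the canalicular pumps, on the membrane that faces the bile canaliculus, secrete bile salts, phospholipid, sterols, drugs and conjugates and so form bile, while the basolateral pumps return substrates to the blood and are known to be raised when bile flow is blocked. Their genes are known targets of nuclear receptors and stress-response factors, among them the bile acid receptor FXR (gene Nr1h4), the oxysterol receptors LXR (Nr1h3 and Nr1h2) and the antioxidant factor NRF2 (Nfe2l2).

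Hepatocytes of male and female C57BL/6 mice, an inbred strain, had been frozen as pools of 3 animals, giving 4 preparations (male 1, male 2, female 1 and female 2) from 12 mice. The cells of each preparation gathered into spheroids in low-attachment plates and were sampled at culture days 1, 7 and 14, without any drug or altered gene named in the labels, and the ages of the mice are not given there. The 12 arrays thus form 6 groups of sex and day with 2 arrays each. The comparisons ask how transporter expression moved over culture and whether it differed by sex.

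The arrays were alike in scale, with medians of 7.47 to 7.53. The array of male 1 at day 14 had the lowest mean correlation with the others across genes, at r = 0.965 against 0.971 to 0.982 for the remaining arrays. The label of hepatocyte was checked on 12 marker genes, all measured, whose mean level was 10.89 to 11.03 over the day 1 arrays and 10.79 to 11.09 over the day 14 arrays. Among these 12, 1 rose from day 1 to day 7. From day 1 to day 14, 1 fell, Serpina1e, from a mean of 12.10 to 11.59 (adjusted p = 0.00636 in limma). Markers of other liver cells were also read. The mean of 11 measured endothelial markers of 18 listed went from 5.51 to 6.28 at day 1 to 4.13 to 5.50 at day 14, and 6 of them fell. That of 14 stellate and fibroblast markers of 15 went from 6.91 to 7.05 at day 1 to 4.08 to 6.71 at day 14, and 7 fell. The 14 measured Kupffer cell and macrophage markers of 18 averaged 4.41 to 5.60 at day 1 and 5.31 to 7.27 at day 14, and 2 rose. Of 7 measured cholangiocyte and progenitor markers of 13, 3 rose, and 0 of 8 lymphocyte markers were measured. Over all genes 7.59% rose and 6.8% fell from day 1 to day 14. In such bulk samples fewer cells of a type and less RNA per cell cannot be told apart.

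Between days 1 and 14 the basolateral pump gene Abcc4 rose by 1.10 ± 0.14 on the log2 scale and the P-glycoprotein gene Abcb1a fell by 1.19 ± 0.13 (SE, 4 preparations per day). These were the largest changes among the 10 genes. Abcc3 rose by 0.21 ± 0.059, a call that did not hold under every setting. In this comparison 3 of the 10 transporters passed limma's test at an adjusted p under 0.05, while 14.4% of all genes did (7.59% higher and 6.8% lower at day 14). The levels of days 1 and 14 did not overlap for 4 of the 10, Abcb1a, Abcc2, Abcc3 and Abcc4, against 15.8% of all genes. The median change of the 10 was 0.01 and that of all genes 0.01, and the median size of the change was 0.22 for the 10 and 0.13 for all genes.

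**Figure D1:**
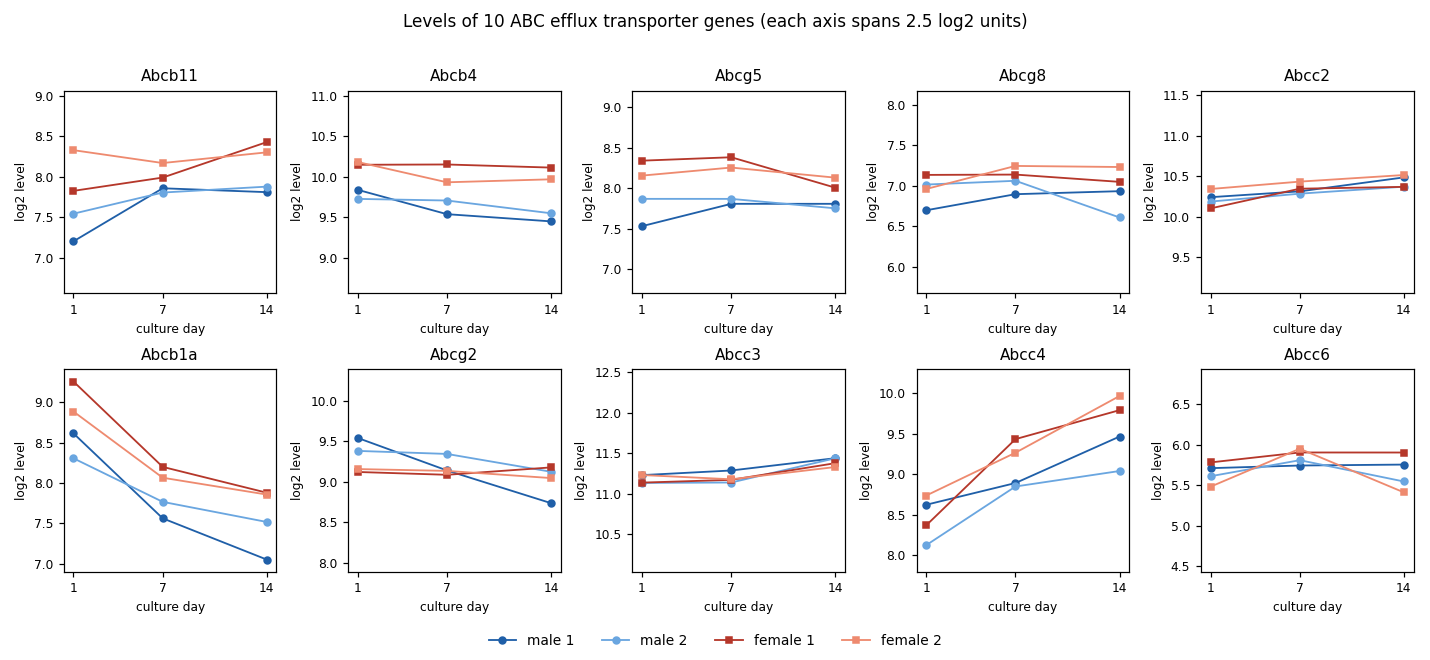
Log2 level of each of the 10 transporter genes (vertical axis of each panel, all spanning the same number of log2 units) by culture day (horizontal axis), with 1 line for each preparation. Abcb1a went down in all 4 preparations, from 8.30 to 9.25 at day 1 to 7.05 to 7.88 at day 14, and Abcc4 went up in all 4, while Abcb4 lines of the females stayed above those of the males at each day.

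Most of the change in Abcb1a lay in the first week. For day 7 against day 1, 2 of the 10 passed, Abcb1a and Abcc4, against 4.72% of all genes (2.74% higher and 1.98% lower), and the same 2 genes had levels that did not overlap between those days, against 10.4% of all genes. For day 14 against day 7, 0 of the 10 passed in limma, against 0.489% of all genes, while 3 had an unadjusted p under 0.05 (Abcb1a, Abcc3 and Abcc4) and 1 passed when limma's spread was fitted with a trend and robustly. Only Abcc3 among the 10 had levels that did not overlap between days 7 and 14, against 5.21% of all genes. Both first-week calls were lost with any 1 preparation left out, where the adjusted p ran from 0.0501 to 0.109 for Abcb1a and from 0.117 to 0.25 for Abcc4.

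**Figure D2:**
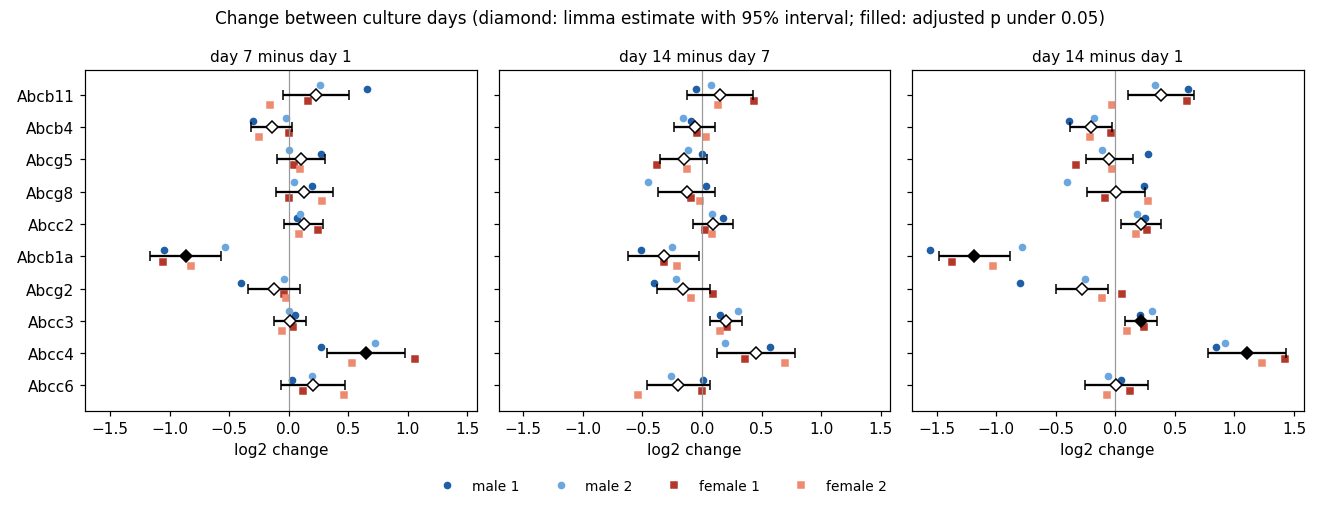
Log2 change of each transporter gene (horizontal axis) between days 7 and 1, 14 and 7, and 14 and 1. Points are the 4 preparations, diamonds the limma estimate with its 95% interval, and filled diamonds mark an adjusted p under 0.05: Abcb1a and Abcc4 in the left panel and Abcb1a, Abcc3 and Abcc4 in the right one.

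Abcb11 encodes the bile salt export pump, which drives bile salts across the canalicular membrane and is the textbook direct target of FXR. Its promoter is shown because a match to the inverted repeat that FXR is known to bind can be read in it. Promoter sequences here run 5′ to 3′ from 250 bases before to 50 after a gene's start, come from RefSeq on build GRCm38.p6, and were found for 8 of the 10 genes, in 12 windows of 300 bases. The build behind the array's probe sets is not given in the sources used here, so the windows are linked to the levels by gene symbol. In the Abcb11 window, chr2:69342567-69342866 on the minus strand, capitals mark a match to AGGTCANTGACCT with 1 mismatch allowed, searched on both strands, at position -63 from the start.

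Abcb11: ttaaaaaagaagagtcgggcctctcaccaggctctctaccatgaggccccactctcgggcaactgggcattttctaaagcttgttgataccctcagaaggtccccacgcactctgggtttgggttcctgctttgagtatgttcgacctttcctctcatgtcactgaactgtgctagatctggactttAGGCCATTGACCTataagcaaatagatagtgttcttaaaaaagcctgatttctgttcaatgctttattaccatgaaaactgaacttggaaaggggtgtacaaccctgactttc

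The match carried the substitution T4C, counted from 1 at the 5′ end of the motif, and the motif with up to 1 mismatch was found in 27 of 32851 mouse promoter windows, or 0.0822%. A match is a description of the letters and does not show that a factor binds there in these cells.

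At day 1, Abcb11 stood at 7.20 in male 1, 7.54 in male 2, 7.83 in female 1 and 8.33 in female 2. At day 7 the same preparations read 7.86, 7.81, 7.99 and 8.17, and at day 14 they read 7.81, 7.88, 8.43 and 8.30. The lowest preparations at day 1 were the males, and the ranges of the 3 days overlapped. The change from day 1 to day 14 was 0.38 ± 0.12 (95% interval 0.10 to 0.66, adjusted p = 0.0722), which did not pass, with changes of 0.61 in male 1, 0.33 in male 2, 0.60 in female 1 and -0.03 in female 2.

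Abcb4 encodes the floppase that moves phosphatidylcholine into bile, where the lipid shields the duct cells from bile salts. Its levels at day 1 were 9.84 in male 1, 9.73 in male 2, 10.15 in female 1 and 10.18 in female 2. They were 9.54, 9.71, 10.15 and 9.93 at day 7, and 9.45, 9.55, 10.12 and 9.97 at day 14. The females were above the males throughout, and within each sex the days lay close together. All 4 preparations were lower at day 14 than at day 1, with changes of -0.39 to -0.03, and the mean change of -0.20 ± 0.076 did not pass (adjusted p = 0.117).

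Abcg5 and Abcg8 encode the partners of one sterol pump, which works only as a heterodimer and exports cholesterol and plant sterols into bile. Both are known LXR targets and lie head to head on chromosome 17, with starts 110 bases apart. The Abcg8 promoter window is printed because 209 of its 300 bases, from 84682962 to 84683170, are also in the Abcg5 window, which is read from the opposite strand. In the window at chr17:84682871-84683170 on the plus strand, capitals mark AGATAA on either strand, a GATA-type motif found in 11.2% of promoter windows.

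Abcg8: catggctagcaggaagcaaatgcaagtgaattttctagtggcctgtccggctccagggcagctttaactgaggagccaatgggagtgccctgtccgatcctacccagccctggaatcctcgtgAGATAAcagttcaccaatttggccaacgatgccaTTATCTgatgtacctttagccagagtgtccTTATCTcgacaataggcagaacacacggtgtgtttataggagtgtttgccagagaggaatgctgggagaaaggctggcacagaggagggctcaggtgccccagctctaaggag

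It occurred 3 times, at positions -127, -93 and -63 from the Abcg8 start, and all 3 matches lie in the stretch that both windows hold.

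Abcg5 read 7.53, 7.87, 8.34 and 8.16 at day 1 in male 1, male 2, female 1 and female 2. It read 7.81, 7.87, 8.38 and 8.26 at day 7, and 7.81, 7.75, 8.01 and 8.13 at day 14. Abcg8 was at 6.70, 7.02, 7.14 and 6.96 at day 1 in the same order, at 6.90, 7.06, 7.14 and 7.25 at day 7, and at 6.93, 6.61, 7.05 and 7.23 at day 14. For both genes the 3 days overlapped, and from day 1 to day 14 the preparations did not share a direction. The change from day 1 to day 14 was -0.05 ± 0.088 for Abcg5 (95% interval -0.25 to 0.15) and 0.004 ± 0.11 for Abcg8 (-0.24 to 0.25), so the data allow a change within these bounds in either direction. Each sign turned under at least 1 other setting. Across the 12 arrays the levels of the partners correlated at r = 0.793, which placed Abcg8 104th among 11860 genes by correlation with Abcg5, and Abcg5 20th by correlation with Abcg8. The arrays share 4 preparations and 3 days, so this value is a description.

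Abcc2 encodes the canalicular conjugate pump that secretes bilirubin glucuronides and glutathione conjugates. It was at 10.24 in male 1, 10.19 in male 2, 10.10 in female 1 and 10.34 in female 2 at day 1. It was at 10.31, 10.29, 10.35 and 10.43 at day 7, and at 10.49, 10.37, 10.37 and 10.52 at day 14. Every day 14 value was above every day 1 value, with day 7 between and overlapping both. The difference between days 14 and 1, 0.22 ± 0.073 and positive in all 4 preparations (0.17 to 0.27), did not pass (adjusted p = 0.0845). It also missed with preparation as a replicate block (adjusted p = 0.055).

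Abcb1a encodes a P-glycoprotein, the multidrug pump, which the mouse has in 2 near-identical copies, Abcb1a and Abcb1b. Probe sequences were not analysed here, so the probe set of one copy may read the other. The 2 copies and Abcb4 are on chromosome 5, and the promoters of the copies are shown side by side because both genes fell. The Abcb1a window is chr5:8566841-8567140 and the Abcb1b window chr5:8797897-8798196, both on the plus strand. Capitals mark TGACNNNGC, the core of the NRF2-type antioxidant element, in Abcb1a and the GC box GGGCGG in Abcb1b, each searched on both strands.

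Abcb1a: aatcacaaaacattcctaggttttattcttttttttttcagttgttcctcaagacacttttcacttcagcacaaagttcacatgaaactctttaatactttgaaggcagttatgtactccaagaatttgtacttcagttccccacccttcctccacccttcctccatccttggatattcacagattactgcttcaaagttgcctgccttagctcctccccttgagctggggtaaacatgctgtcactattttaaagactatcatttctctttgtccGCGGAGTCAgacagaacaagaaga

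Abcb1b: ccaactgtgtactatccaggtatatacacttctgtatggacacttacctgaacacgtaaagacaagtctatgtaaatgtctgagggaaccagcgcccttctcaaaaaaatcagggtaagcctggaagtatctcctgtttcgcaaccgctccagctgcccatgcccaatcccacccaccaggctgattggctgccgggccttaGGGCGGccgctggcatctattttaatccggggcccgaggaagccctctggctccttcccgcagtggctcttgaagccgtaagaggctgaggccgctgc

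The match in Abcb1a lies on the reverse strand at position 26 from the start, and that in Abcb1b at position -48. TGACNNNGC was found in 12.4% of promoter windows and GGGCGG in 35.7%, and neither window held the other's motif.

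Abcb1a stood at 8.61 in male 1, 8.30 in male 2, 9.25 in female 1 and 8.88 in female 2 at day 1. At day 7 it stood at 7.56, 7.77, 8.20 and 8.06. At day 14 it stood at 7.05, 7.52, 7.88 and 7.86. Every day 1 value was above every later value, while days 7 and 14 overlapped. Abcb1a fell by 0.87 ± 0.13 from day 1 to day 7 (adjusted p = 0.0113) and by 1.19 ± 0.13, or 2.28-fold, from day 1 to day 14 (adjusted p = 0.00102). All 4 preparations were lower at day 14, with changes of -1.56 in male 1, -0.79 in male 2, -1.37 in female 1 and -1.03 in female 2. The call between days 1 and 14 held with any 1 preparation left out (adjusted p 0.00875 to 0.0234). The difference of -0.32 ± 0.13 between days 14 and 7 did not pass (adjusted p = 0.326).

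The copy Abcb1b moved the same way. It was at 8.25, 8.05, 8.29 and 8.03 at day 1, at 7.41, 7.09, 7.89 and 7.83 at day 7, and at 7.07, 7.35, 7.54 and 7.72 at day 14, in male 1, male 2, female 1 and female 2. It fell by 0.60 ± 0.11 by day 7 (adjusted p = 0.0205) and by 0.74 ± 0.11 by day 14 (adjusted p = 0.00336), calls that were lost without female 1 (0.0605) at day 14 and with any 1 preparation left out at day 7 (0.112 to 0.144). Over the 12 arrays the levels of the copies correlated at r = 0.899. Abcb1b ranked 48th among 11860 genes by correlation with Abcb1a, and Abcb1a 8th by correlation with Abcb1b.

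P-glycoprotein is also known in endothelial cells, whose markers went down in the same cultures. The mean of the 11 endothelial markers changed from day 1 to day 14 by -1.37 in male 1, -1.91 in male 2 and -0.78 in female 1, with female 2 between female 1 and male 1. Abcb1a changed between the same days by -1.56 in male 1, -0.79 in male 2, -1.37 in female 1 and -1.03 in female 2. Of the defining endothelial genes, Cdh5 had a mean of 5.80 at day 1 and 3.39 at day 14. Pecam1 had 5.52 and 4.33 and did not pass in limma (adjusted p = 0.0956). Flt4 alone of the 11 had a higher mean at day 14, 7.66 against 7.32, and did not pass either (0.0883). Over all days 6 of the 11 markers, Cdh5 and Pecam1 among them, had a mean under 4.79, the level that every probe set reached on at least 1 array. Their part in the fall of Abcb1a was not tested.

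Abcg2 encodes the canalicular pump for sulfate conjugates, porphyrins, urate and many drugs. Its levels were 9.54 in male 1, 9.38 in male 2, 9.12 in female 1 and 9.16 in female 2 at day 1. They were 9.14, 9.34, 9.09 and 9.14 at day 7, and 8.74, 9.12, 9.18 and 9.05 at day 14. The males began above the females, and by day 14 male 1 was the lowest of all. From day 1 to day 14 male 1 changed by -0.81, male 2 by -0.26, female 1 by 0.06 and female 2 by -0.11, and the mean change of -0.28 ± 0.096 did not pass (adjusted p = 0.0906). The change in males minus that in females was -0.50 ± 0.19 and did not pass (adjusted p = 0.609 in limma). Abcg2, too, is known in endothelial cells, and the part of the falling endothelial markers in its values was not tested.

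Abcc3 encodes a basolateral pump that passes glucuronides, such as those of bilirubin, back to the blood. It was the highest of the 10 in rank on these arrays, above 98.0% of all genes, although levels of different probe sets are not on a common scale. It was at 11.23 in male 1, 11.14 in male 2, 11.14 in female 1 and 11.23 in female 2 at day 1. It was at 11.29, 11.14, 11.17 and 11.18 at day 7, and at 11.44, 11.44, 11.38 and 11.33 at day 14. All values of the first 2 time points lay below all those of day 14, and days 1 and 7 overlapped. Abcc3 rose from day 1 to day 14 by 0.21 ± 0.059, or 1.16-fold (adjusted p = 0.0462), with all 4 preparations higher. That call was lost with a replicate block for preparation (adjusted p = 0.0627), with arrays centred on a common median (0.0547), with any 1 preparation left out (0.152 to 0.258) and without the day 14 array of male 1 (0.104).

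Abcc4 encodes a basolateral pump that exports bile acids together with glutathione, and also cyclic nucleotides and sulfated steroids. Its promoter, chr14:118706170-118706469 on the minus strand, is the second one shown with the NRF2-type core, since Abcc4 is a known NRF2 target and moved the other way from Abcb1a. Capitals mark TGACNNNGC and GGGCGG on either strand.

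Abcc4: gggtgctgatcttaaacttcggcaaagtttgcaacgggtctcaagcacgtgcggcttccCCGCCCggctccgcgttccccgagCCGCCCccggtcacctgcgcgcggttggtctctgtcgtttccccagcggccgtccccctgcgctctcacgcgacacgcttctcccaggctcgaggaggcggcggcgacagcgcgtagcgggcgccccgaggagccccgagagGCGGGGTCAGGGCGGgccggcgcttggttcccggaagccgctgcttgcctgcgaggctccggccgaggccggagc

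The core lies on the reverse strand at position -25 from the start, and GGGCGG matched 3 times, at -191, -167 and -16, the last directly beside the core. The same core was found in windows of 3 of the 8 matched transporters, Abcb1a, Abcc2 and Abcc4. A further Abcc4 window, chr14:118676882-118677181, also held it. The 12.4% given above is a share of windows, while 3 of 8 counts genes, some with several windows, so the values are not on the same footing.

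At day 1, Abcc4 read 8.62 in male 1, 8.12 in male 2, 8.37 in female 1 and 8.74 in female 2. At day 7 it read 8.89, 8.85, 9.43 and 9.27, and at day 14 it read 9.47, 9.04, 9.79 and 9.97. Every later value exceeded every day 1 value, and days 7 and 14 overlapped. Abcc4 rose by 0.65 ± 0.14 from day 1 to day 7 (adjusted p = 0.0418) and by 1.10 ± 0.14, or 2.15-fold, from day 1 to day 14 (adjusted p = 0.00195). The preparations were higher at day 14 by 0.84 in male 1, 0.92 in male 2, 1.42 in female 1 and 1.23 in female 2. This call held with any 1 preparation left out (adjusted p 0.0187 to 0.0325). The further difference of 0.46 ± 0.14 between days 7 and 14 did not pass (adjusted p = 0.202). The change in males minus that in females, -0.45 ± 0.29, did not pass either (adjusted p = 0.891).

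Abcc6 encodes a basolateral transporter through which hepatocytes release ATP, a source of the mineralisation inhibitor pyrophosphate. It ranked lowest of the 10, above 21.0% of all genes. It read 5.71, 5.61, 5.78 and 5.48 at day 1, 5.75, 5.81, 5.91 and 5.95 at day 7 and 5.76, 5.55, 5.91 and 5.41 at day 14, in male 1, male 2, female 1 and female 2. All 3 days overlapped. The change from day 1 to day 14 was 0.008 ± 0.12, with a 95% interval of -0.26 to 0.28.

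By sex, 0 of the 10 transporters passed limma's test at any day or over all days. At days 1, 7 and 14, 0.767%, 0.354% and 1.06% of all genes passed, and over all days 0.177% did. Without adjustment 5, 4 and 6 of the 10 had a p under 0.05 at days 1, 7 and 14, and 6 did over all days. With a trend and robust spread in limma, 3, 1, 1 and 4 passed. Abcb11, Abcb4, Abcg5 and Abcb1a stood higher in both female preparations than in both male ones at all 3 days. That is 4 of 10, against 5.5% of all genes with the females higher at all 3 days and 11.3% with either sex higher. Each sex was represented by 2 pools, so the arrays of different days share their preparations and sex cannot be told apart from the pools drawn for it.

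Averaged over the 3 days of each preparation, Abcb1a was at 7.74 and 7.86 in the male pools and at 8.27 and 8.44 in the female pools, a difference of male minus female of -0.55 ± 0.091 (adjusted p = 0.0919). The bile salt pump gene Abcb11 was at 7.62 and 7.74 in males and at 8.08 and 8.27 in females. Abcb4 was at 9.61 and 9.66 in males and at 10.03 and 10.14 in females. For each of these genes both female pools were above both male pools. By the same measure Abcb11 differed by -0.49 ± 0.093 (adjusted p = 0.109), the phospholipid floppase gene Abcb4 by -0.45 ± 0.07 (adjusted p = 0.0912) and the sterol pump gene Abcg5 by -0.44 ± 0.072 (adjusted p = 0.0919). Its partner Abcg8 differed by -0.26 ± 0.061 (adjusted p = 0.141), with the sexes overlapping at day 1. Abcc4 differed by -0.43 ± 0.13 (adjusted p = 0.192), with the sexes overlapping at day 1 and the females higher at days 7 and 14. For Abcc2, Abcc3, Abcc6 and Abcg2 the differences were between -0.04 and 0.09. The closest to a call at a single day was Abcb4 at day 14, at -0.54 ± 0.11 (adjusted p = 0.0599).

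**Figure D3:**
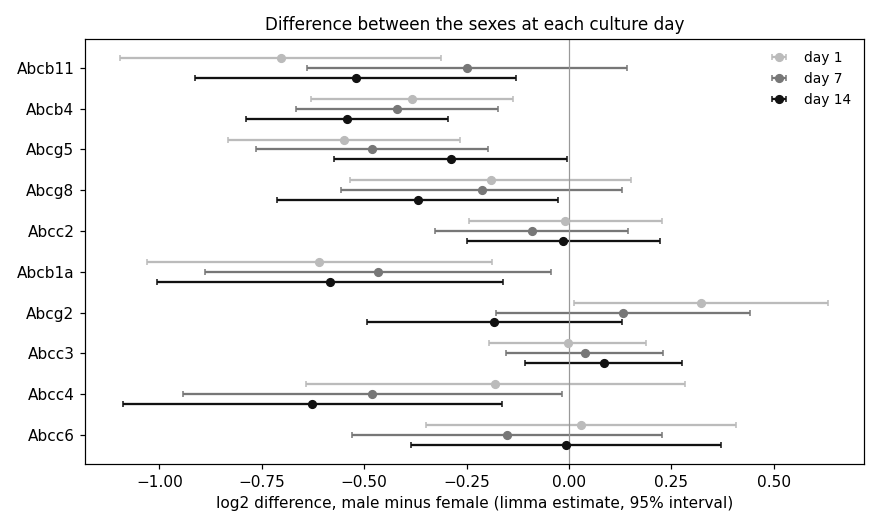
Difference in log2 level between the sexes (horizontal axis, male minus female) for each transporter gene at days 1, 7 and 14; points are limma estimates and bars their 95% intervals without adjustment over genes. The estimates of Abcb11, Abcb4, Abcg5, Abcg8, Abcb1a and Abcc4 lie below 0 at all 3 days, that of Abcg2 goes from 0.32 at day 1 to -0.18 at day 14, and none passed after adjustment over all genes.

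The sex difference in the change from day 1 to day 14 passed for 0 of the 10 transporters and for 0% of all genes in limma. Of the 10, 1 (Abcg2) had an unadjusted p under 0.05, and 0 passed with a replicate block or with a trend and robust spread.

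By correlation of level over the 12 arrays, the genes most like Abcb1a were Igtp, an interferon-induced GTPase gene (r = 0.967), Trpm1 (0.961) and Ripply1 (0.952). Those most like Abcc4 were Tmem171 (0.96), Fgd3 (0.95) and Serpinb9b (0.948). For Abcc3 they were Spink1, a trypsin inhibitor gene (0.921), Sulf2 (0.92) and Ptprm (0.915). Among the transporters themselves, Abcc2 and Abcc4 correlated at 0.857 and Abcb1a and Abcb4 at 0.74. Abcc4 ranked 22nd among 11860 genes by correlation with Abcc2, and Abcc2 69th by correlation with Abcc4. Abcb4 ranked only 549th by correlation with Abcb1a. These values describe 12 arrays that share preparations and days.

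Of 25 other ABC transporter genes on the array, 3 rose and 1 fell from day 1 to day 14, with a median change of 0.04. Over all genes 7.59% rose and 6.8% fell between these days. Between days 1 and 7 4.72% of all genes passed, and between days 7 and 14 0.489% did. Abcc1, a broad conjugate and drug exporter of many cell types, rose by 1.01 ± 0.165 (adjusted p = 0.00537), Abcg1, which passes cholesterol to lipoproteins, by 0.90 ± 0.15 (adjusted p = 0.00599), and Abcc5, a cyclic nucleotide exporter, by 0.65 ± 0.12 (adjusted p = 0.00833). The gene that fell was Abcb1b, and it was the only one of the 25 to pass between days 1 and 7 in the fit reported here. With a trend and robust spread 5 rose and 1 fell between days 1 and 7, where 956 of all 11861 genes passed. Between days 7 and 14 0 passed in limma, while 6 had an unadjusted p under 0.05, 2 passed with a trend and robust spread, and the largest difference was Abcd2 (-0.85 ± 0.26, adjusted p = 0.184). With a replicate block Abca8a also passed in both intervals, higher at day 7 than at day 1 by 0.75 ± 0.21 (0.0212, against 0.0889 without the block) and lower at day 14 than at day 7, with a change of -0.76 ± 0.21 (0.0482, against 0.163). Without male 1 or without male 2 the calls of Abcc1 (0.0507 and 0.0556), Abcc5 (0.106 and 0.0881) and Abcg1 (0.0703 and 0.0887) were lost.

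Abcc1 was at 6.20, 5.69, 5.41 and 5.73 at day 1 and at 6.84, 6.50, 6.99 and 6.75 at day 14 in male 1, male 2, female 1 and female 2, without overlap. Abcg1 was at 5.22, 4.93, 4.72 and 5.15 at day 1 and at 5.48, 5.44, 6.65 and 6.06 at day 14, also without overlap, with both females above both males at day 14. Both genes are known in macrophages. The mean of the 14 macrophage markers was higher at day 14 than at day 1 in every preparation. It rose by 0.84 in male 1, 0.73 in male 2, 1.67 in female 1 and 0.90 in female 2. Of the 14, 2 passed in limma and 3 had a mean under 4.79 over all days. Clec4f alone had a lower mean at day 14, 4.56 against 4.64. The part of the macrophage markers in the rises of Abcc1 and Abcg1 was not tested.

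**Figure D4:**
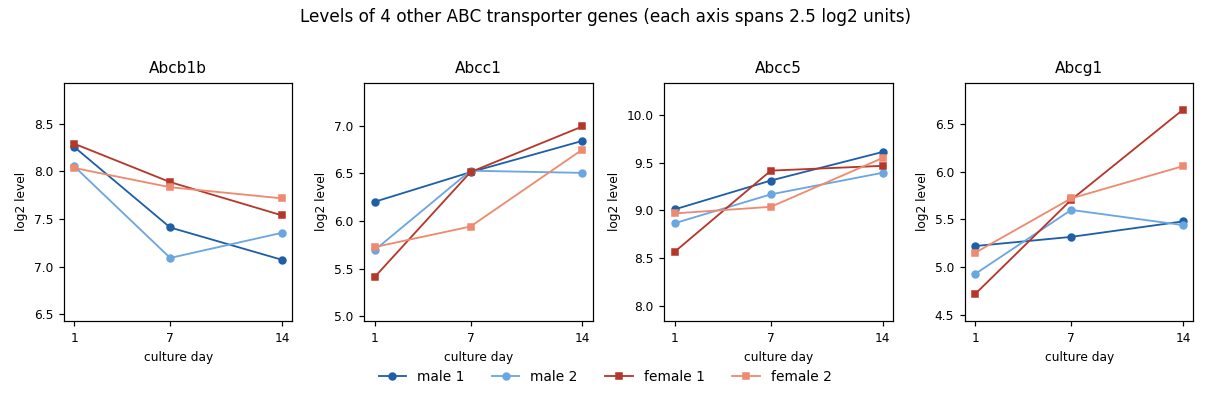
Log2 level (vertical axes, all spanning the same number of units) of Abcb1b, Abcc1, Abcc5 and Abcg1 by culture day, with 1 line for each preparation. Abcb1b went down and Abcc1, Abcc5 and Abcg1 went up from day 1 to day 14 in all 4 preparations.

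The list of 19 other exporters of bile constituents and drugs shares Abcb1b, Abcc1, Abcc5, Abca1 and Abcg1 with the previous one. Among its 16 measured genes, 3 rose and 2 fell from day 1 to day 14, against 7.59% and 6.8% of all genes. Beside those named, Atp8b1, the flippase that keeps the lipid order of the canalicular membrane, fell by 0.35 (adjusted p = 0.00573, and 0.0567 to 0.102 without male 1, male 2 or female 2). Atp8b1 also fell by 0.38 ± 0.058 from day 7 to day 14 (adjusted p = 0.0343), and was lost there with a replicate block (0.0546) and with any 1 preparation left out (0.179 to 0.364).

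Of 21 measured regulators of transporter genes, 4 rose and 2 fell from day 1 to day 14, against 7.59% and 6.8% of all genes. The fatty acid receptor gene Ppara rose by 0.49 ± 0.11 (adjusted p = 0.023) and the LXR gene Nr1h3 by 0.31 ± 0.082 (0.0386), and the liver factor gene Foxa2 fell by 0.34 ± 0.077 (0.0204). Rxra, the shared partner of these receptors, and Nr5a2 rose too, and Keap1, the inhibitor of NRF2, fell. Rxra was the only one to pass between days 1 and 7 in the fit reported here (0.32 ± 0.058, adjusted p = 0.0216), and missed with any 1 preparation left out (0.118 to 0.256). With a trend and robust spread 4 regulators rose and 2 fell between days 1 and 7, where 956 of all 11861 genes passed. Nr1h4, which encodes FXR, differed by 0.07 (adjusted p = 0.728), and its target Nr0b2 by -0.84 (adjusted p = 0.219, or 0.0354 with a replicate block). All 6 calls between days 1 and 14 were lost without male 1 and without male 2. Those of Nr1h3 (adjusted p = 0.0608), Nr5a2 (0.0609) and Rxra (0.064) were also lost with a replicate block. With that block 2 regulators passed as higher, Ppara and a gene not called without it, and 3 as lower, Nr0b2 among them.

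The 18 measured target genes of FXR and LXR, other than the 10 transporters, held 5 that rose and 2 that fell. Those that rose were Abcg1, Lpl, Pltp, Nr1h3 and Lpcat3. Those that fell were Fetub, with a change of -0.42, and Fbp1, with a change of -0.34. From day 1 to day 14, 7.59% of all genes rose and 6.8% fell. Lpl, a lipoprotein lipase, rose by 0.90 ± 0.096 (adjusted p = 0.000902) and Pltp, which transfers phospholipid between lipoproteins, by 0.86 ± 0.22 (adjusted p = 0.0358), beside Abcg1. Only Lpl of the 7 passed with any 1 preparation left out, while Pltp missed without male 1, male 2 or female 1 (0.101 to 0.212). With a replicate block 3 rose and 3 fell. Abcg5 and Abcg8, the LXR targets among the transporters, had changes of -0.05 and 0.004.

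The 20 measured NRF2 target genes held 7 that rose and 2 that fell from day 1 to day 14, with a median change of 0.20. The shares of all genes were 7.59% and 6.8%. Cbr3, a carbonyl reductase, rose by 1.17 ± 0.092 (adjusted p = 0.000243), and Gsta4, a glutathione transferase for lipid peroxidation products, by 0.77 ± 0.09 (adjusted p = 0.00133). Osgin1 fell by 0.67 ± 0.11 (adjusted p = 0.00459, and 0.0636 and 0.0552 without female 1 or female 2), and the calls of Cbr3 and Gsta4 between days 1 and 14 held with any 1 preparation left out. Between days 1 and 7, 3 rose and 1 fell, against 2.74% and 1.98% of all genes, with Gsta4 higher by 0.67 and Cbr3 by 0.50. With 1 preparation left out, Cbr3 did not pass there in any of the 4 fits (0.0812 to 0.218) and Gsta4 passed in 1 (0.0337 to 0.137). Between days 7 and 14 Cbr3 rose by 0.67 ± 0.092 (adjusted p = 0.0272) and the cystine transporter gene Slc7a11 by 0.62 ± 0.10 (adjusted p = 0.0453, or 0.0622 with a replicate block), both lost with any 1 preparation left out (0.129 to 0.386). Of the transporters known as NRF2 targets, Abcc4 changed by 1.10, Abcc3 by 0.21, Abcc2 by 0.22 and Abcg2 by -0.28 from day 1 to day 14. Abcc2 and Abcg2 did not pass.

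Of 34 measured genes of the canalicular membrane, its trafficking and cell polarity, 6 rose and 2 fell from day 1 to day 14. The shares of all genes were 7.59% and 6.8%. The tight junction genes Ocln and Cldn1 rose by 0.76 ± 0.085 (adjusted p = 0.00105) and 0.55 ± 0.07 (adjusted p = 0.00177), and Cldn14 fell by 0.51 ± 0.11 (adjusted p = 0.0161). Ocln, Tjp3 and Cldn1 had passed by day 7, with rises of 0.64, 0.48 and 0.42, none of which passed with any 1 preparation left out (0.055 to 0.303), and Tjp3 also missed with a replicate block (0.0737). The calls of Ocln and Cldn1 between days 1 and 14 held with any 1 preparation left out, and that of Cldn14 was lost without male 1, male 2 or female 2 (0.0795 to 0.155). These lists were chosen with earlier results of these data known, so their counts are a description.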

How the data were processed

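Expression was read on 12 arrays of spheroid RNA, and groups of sex and day came from the sample labels. The deposited values are log2 levels per probe set. Per the submitters' processing notes, the tools were RMA (robust multi-array averaging), Transcriptome Analysis Console 4.0 and Partek 7.0, with no roles stated. The array build is not given in the sources used here. Each of the 13081 deposited probe sets reached at least 4.79 on at least 1 array, and no value exceeded 12.84. The platform annotation gave a symbol to 11889 probe sets and none to 1192, and symbols matched mouse RefSeq genes by gene number. For 19 symbols the probe set with the highest mean was kept, leaving 11861 genes.

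Tests used R 4.3.3 with data.table (version 1.17.8) and limma 3.58.1 (lmFit, contrasts.fit and eBayes, a mean per group of sex and day), two-sided, with Benjamini-Hochberg adjustment over all genes and calls under 0.05. The steps were run on simulated data with independent noise for each array. Those data held no effect shared by the arrays of a preparation, so they do not test the fit under that pairing. For sex over all days each preparation's 3 arrays were averaged first. Each ± on a change is a standard error. Preparations are pools of 3 mice, so p-values measure how pools vary, and the small number of arrays limits precision. The members and lists were chosen with earlier results of these data known. All 10 members are described, with up to 3 genes per list and day comparison that passed with the largest change (failing any, the gene of largest change) and the 3 genes most correlated with each member that passed between days 1 and 14. Rxra, Nr5a2, Keap1, Nr1h4, Nr0b2 between days 1 and 14, Abca8a, Abcc5 and Atp8b1 (the last 2 between days 1 and 14), and the correlations between transporters were chosen for mention with their values in view. So were Lpcat3, Fetub, Fbp1 and Clec4f.

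Every preparation gave an array at each day, and the donor number therefore pairs arrays by design. The deviations of same-preparation arrays from their group means correlated at 0.0359 to 0.324, and the replicate block was an alternative. Others were a trend and robust spread, centring, a second quantile normalization, a low-mean filter at 5, the mean of a symbol's probe sets, each preparation left out and, chosen after seeing the data, the day 14 array of male 1 left out.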

Additional observations from a re-analysis of the deposited data

How the results depend on the processing

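The count of transporters that passed between days 14 and 1 was 3. It was 2 with the replicate block, which dropped Abcc3 and changed no other member's call. With a trend and robust spread it was 7, so some members described above as not passing did pass there. Over all 11861 genes that spread gave 2183 calls between these days (1706 as reported). With that spread 1 passed between days 14 and 7, and 3, 1 and 1 by sex at days 1, 7 and 14, with 4 over all days. At day 14, 1 passed by sex with the low-mean filter. Between days 7 and 1 the count of 2 went to 0 with any preparation left out. Leaving out a preparation, or the day 14 array of male 1, gave signs either side of 0 for Abcc3 between days 7 and 1 (-0.0107 to 0.0329) and, between days 14 and 1, for Abcc6 (-0.0443 to 0.0560), Abcg5 (-0.148 to 0.0483) and Abcg8 (-0.157 to 0.164). A second quantile normalization turned Abcc6 (-0.0102) and Abcg8 (-0.0178), and centring turned Abcg8 (-0.00335). The causes were not tested. Over all genes the calls with a trend and robust spread were 956 between days 7 and 1 (560 as reported), 309 between days 14 and 7 (58), 292, 178 and 411 by sex at days 1, 7 and 14 (91, 42 and 126), 14 for the sex difference in the change (0) and 974 for sex over all days (21). The replicate block gave 101 and the low-mean filter 105 between days 14 and 7, the block 1 for the sex difference in the change, and the filter 133 by sex over all days. With a preparation left out they were 40 to 75, 0 to 8 and, between days 14 and 1, 494 to 826 (1706), and by sex 3 to 21, 4 to 18 and 11 to 113 at the 3 days, 3 to 26 over all days, with 0 to 17 for the difference between the sexes in the change. Without the day 14 array of male 1 they were 9 between days 14 and 7 and 8 by sex at day 14. With 2 pools per sex, differences of the size seen for Abcb11 or Abcb4 did not pass in the fit reported above. Over all days both passed with a trend and robust spread in limma (adjusted p = 0.00511 and 0.00106) and missed with centring (0.103 and 0.083). Abcb4 at day 14 passed with the low-mean filter (0.0455) and missed with centring (0.0538).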
